A study of Mus musculus with 28 samples.

Results

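The 34 genes described here encode aminoacyl-tRNA synthetases, and they were measured by RNA sequencing in the amygdala of female mice that drank water, had a single ethanol session or drank ethanol repeatedly. They were chosen by name. A member had a GENCODE M21 symbol made of an amino acid letter followed by ars or ars2, or was *Eprs*, *Qars*, *Farsa* or *Farsb*, was listed in the count tables of both batches of mice, and had a mean count of 10 or more. The annotation held 37 such symbols. All 34 that were listed in both tables passed the count minimum, out of 16266 genes that did so among 49477 shared genes. By the enzymes they encode, 15 members were cytosolic, 17 were mitochondrial, and *Gars* and *Kars* serve both compartments from the same gene. The other 3 symbols, *Hars*, *Lars* and *Nars*, were used here in the second batch only.

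Each synthetase joins an amino acid to the transfer RNAs that carry it, which is the step that fixes the genetic code before the ribosome reads a message. Most animal cells keep separate sets of nuclear genes for the cytosolic enzymes and for those imported into mitochondria, where they charge the transfer RNAs for the few proteins of the respiratory chain that the mitochondrial genome encodes. Several cytosolic enzymes sit in a multisynthetase complex, and many cytosolic synthetase genes are known targets of ATF4, the transcription factor of the integrated stress response to amino acid shortage and to misfolded protein. Mutations in synthetase genes of both compartments cause neuropathies and leukoencephalopathies.

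All 28 mice were adult C57BL6/J females that had been 7 weeks old on arrival. The Water group (10 mice) had no ethanol, the Acute group (9 mice) had water until a single choice between 20% ethanol and water on day 28, and the Chronic group (9 mice) had that choice every other day for 28 days. Bilateral tissue punches of the basolateral and central amygdala were taken on day 29, while ethanol was still on offer to the drinking mice. The mice came as 2 independent cohorts, here called batches, with 4, 4 and 3 mice of the Water, Acute and Chronic groups in the first and 6, 5 and 6 in the second. Each batch contained every group, so group and batch could be separated in a fit.

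Total estimated counts per library ranged from 20004380 to 22569562. Levels below are TMM-normalised CPM, counts scaled to a common library size, and per length they are CPM per kilobase of coding transcript (the median length where a gene has several). Defining markers of neurons, astrocytes, oligodendrocytes, microglia and endothelial cells were detected in all 28 libraries. No marker of these 5 cell types or of choroid plexus passed an adjusted p of 0.05 in edgeR between groups. Of 7 oligodendrocyte markers, 6 were above 0 in both drinking groups, with median log2 fold changes of 0.12 in Acute and 0.08 in Chronic mice and none at an unadjusted p under 0.05. Of the 28 markers tested for the other 4 cell types, 4 were under an unadjusted p of 0.05 in Acute mice and 3 in Chronic mice, beside 9.52% and 10.5% of all genes tested. *S100b*, an astrocyte marker, was among them in both, at 0.13 and 0.14. The astrocyte list did not move with it. In each comparison with Water, 2 of its 7 markers were above 0 and 5 below, with medians of -0.0138 in Acute and -0.0107 in Chronic mice. *Slc1a2*, also an astrocyte marker, was lower in Chronic mice at -0.09 ± 0.04 (unadjusted p = 0.0398 in edgeR). The summed level of 6 choroid plexus markers was uneven between mice, from 12.5 to 4298 CPM. The part of any of these in the results below was not tested. In bulk tissue, fewer cells of a type and less RNA per cell cannot be told apart.

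The cytosolic enzymes were the more abundant set per length. Their mean levels over 28 mice had a median of 16.7 CPM per kilobase, against 5.96 for the mitochondrial members. *Sars*, the seryl enzyme, was the highest cytosolic member at 51.1 ± 3.27 CPM per kilobase (SD, n = 28). *Wars*, for tryptophan, followed at 39.6 ± 2.02 and *Dars*, for aspartate, at 37.6 ± 3.23. *Wars* and *Dars* did not differ beyond their spread, while *Sars* stood above both. This order depended on the length used, since with all exons of a gene joined the means were 38.12 for *Sars*, 38.11 for *Wars* and 21.5 for *Dars*. *Vars*, for valine, at 9.82 ± 0.901 and *Tars*, for threonine, at 7.62 ± 0.478 were the lowest. *Gars*, which makes both the cytosolic and the mitochondrial glycyl enzyme, exceeded every other member at 53.0 ± 2.78, within the spread of *Sars*. *Kars*, the lysyl enzyme of both compartments, stood at 30.5 ± 2.71.

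*Iars2*, for mitochondrial isoleucine, was the highest mitochondrial gene at 22.5 ± 0.850 CPM per kilobase. *Tars2*, for threonine, was at 11.8 ± 0.662. *Wars2* and *Mars2* were the lowest at 2.31 ± 0.250 and 1.91 ± 0.164. This order too depended on the length used. With all exons of a gene joined, the mean of *Iars2* was 9.45, *Tars2* at 6.40 fell below *Rars2* at 8.58, and *Wars2* at 1.26 fell below *Mars2* at 1.91. *Lars2*, the leucyl enzyme, had no single level. Its mean was 28.5 ± 5.60 CPM per kilobase in the 11 mice of the first batch, where it ranked 1st of 17, and 4.58 ± 0.458 in the 17 mice of the second batch, where it ranked 11th. Mean levels over both batches hide this for *Lars2* and are not used for it below.

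**Figure D1:**
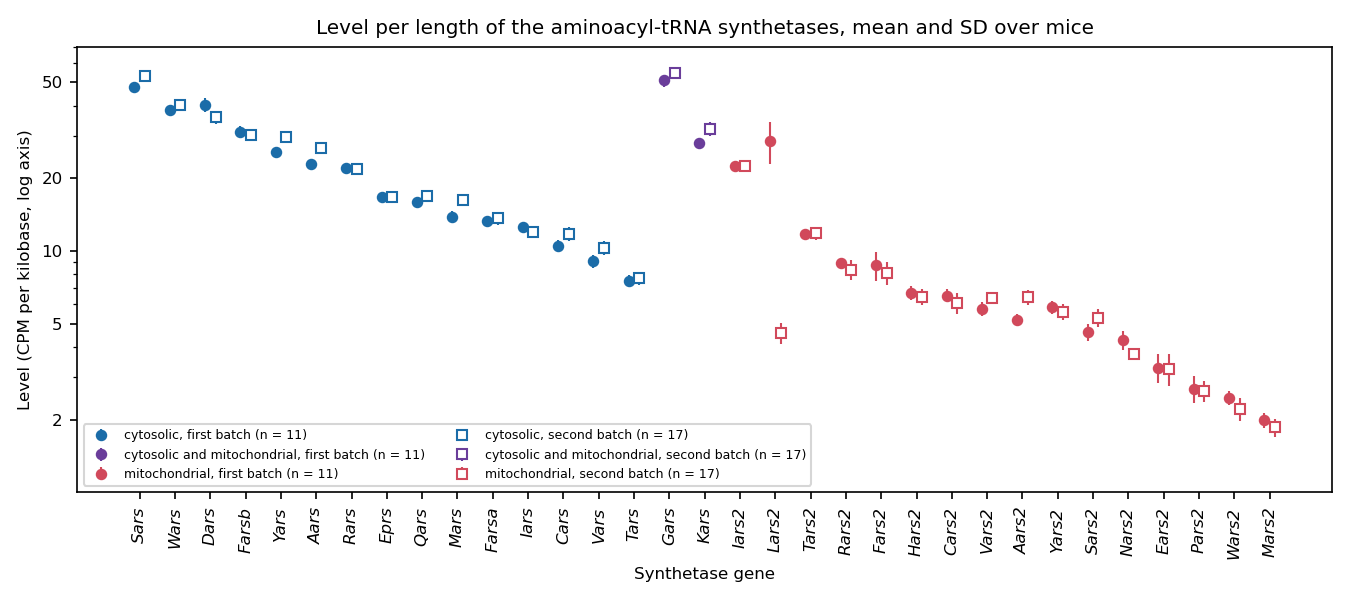
Level of 33 of the 34 synthetase genes in CPM per kilobase of coding transcript on a log axis, as the mean and SD over the 11 mice of the first batch (filled circles) and the 17 mice of the second (open squares), with compartments in colour. The 2 batches lie close together for every member plotted but *Lars2*, at 28.5 in the first and 4.58 in the second.

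Both compartments could be compared amino acid by amino acid in 13 pairs of a cytosolic and a mitochondrial gene, with *Farsa* and *Farsb*, the subunits of the cytosolic phenylalanyl enzyme, each set against *Fars2*. In 11 of the 13 pairs the cytosolic gene was the higher per length in all 28 mice. The mean ratio within a mouse ran from 1.60 ± 0.117 for *Vars* over *Vars2* to 17.4 ± 2.51 for *Wars* over *Wars2*. The order was turned in 2 pairs, again in all 28 mice. *Iars* was at 0.543 ± 0.0314 of *Iars2* and *Tars* at 0.648 ± 0.0530 of *Tars2*. These 2 pairs depended on the length used, since the annotated transcripts of *Iars2* and *Tars2* differ in length. With all exons of a gene joined, the means became 12.1 for *Iars* against 9.45 for *Iars2*, and 7.62 for *Tars* against 6.40 for *Tars2*. In the second batch, where the cytosolic partner was also measured, *Hars* exceeded *Hars2* by 6.19 ± 0.587 times, *Nars* exceeded *Nars2* by 17.4 ± 1.09 times and *Lars* exceeded *Lars2* by 1.86 ± 0.223 times, each in 17 of 17 mice.

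Levels of the synthetases were steady between mice. The SD of log2 CPM around the means of batch and group had a median of 0.0661 over the cytosolic members and 0.120 over the mitochondrial members, beside 0.138 over all genes tested. *Sars* was the steadiest member at 0.0544, lower than all but 2.85% of genes. *Ears2*, the mitochondrial glutamyl enzyme, varied most at 0.224. The mitochondrial genes also had the lower counts, and the part of counting error in this difference was not tested.

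The first comparison asked whether a single ethanol session was followed by a change in these genes. No member passed an adjusted p of 0.05 in the edgeR quasi-likelihood test of Acute against Water, and the same test called 0 of all 16266 genes (0.0%). DESeq2 called 1 member, *Lars2*, and 8 of all genes. At an unadjusted p under 0.05, 3 of 34 members stood out, beside 9.52% of all genes. These were *Lars2* and *Gars*, both higher in Acute mice, and *Vars2*, lower. Of the 15 cytosolic members, 12 had a fold change above 0, with a median log2 fold change of 0.02. Of the 17 mitochondrial members, 9 were above 0, with a median of 0.01. The median over all genes tested was 0.00, with 50.6% above 0.

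*Lars2* had the largest difference of any member in this comparison, and it was described batch by batch because its level was not the same in both. In the first batch, the 4 Acute mice had 118, 128, 133 and 152 CPM. The 4 Water mice had 86.9, 97.8, 97.9 and 98.7 CPM. Every Acute mouse was above every Water mouse, and such a lack of overlap in either direction was found in 4.09% of all genes. The 3 Chronic mice had 85.8, 94.8 and 127 CPM, so that 1 lay below every Water mouse, 1 among the Water mice and 1 among the Acute mice.

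In the second batch, the 5 Acute mice had 17.4, 18.2, 18.7, 19.3 and 21.5 CPM of *Lars2*. The 6 Water mice ran from 15.3 through a median of 16.9 to 18.5 CPM, and the 6 Chronic mice from 15.3 through 18.02 to 20.97 CPM. The groups overlapped here, with 2 of the Acute mice below the highest Water mouse. No member had Acute and Water mice apart in the second batch, as 0.418% of all genes did.

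**Figure D2:**
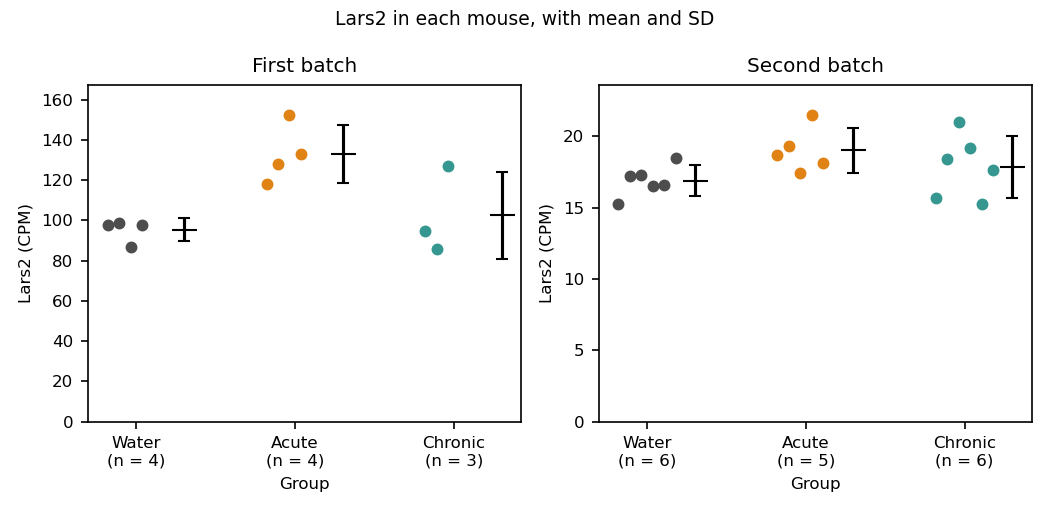
*Lars2* in CPM in each mouse (points), by group and batch, with the mean and SD beside the points. The axes of the 2 panels differ, and the first batch runs from 85.8 to 152 CPM and the second from 15.3 to 21.5 CPM. Acute mice stand clear of Water mice in the first batch and overlap them in the second.

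Over both batches, the log2 fold change of *Lars2* was 0.33 ± 0.07 (SE, 9 Acute and 10 Water mice), with an unadjusted p of 9.22e-05 and an adjusted p of 0.194 in edgeR. Its adjusted p lay on either side of 0.05 depending on the tool. DESeq2 with batch as a covariate gave 0.32 and an adjusted p of 0.0495, and DESeq2 after ComBat-seq batch adjustment gave 0.28 and an adjusted p of 0.0482. Within the batches the log2 difference from Water was 0.48 ± 0.11 in the first and 0.17 ± 0.08 in the second, with edgeR adjusted p of 0.664 and 0.915. The Acute difference in the second batch minus that in the first was -0.31 ± 0.13 (unadjusted p = 0.0309, adjusted p = 0.999 in edgeR), so a difference between the batches was not shown. At an unadjusted p under 0.05, the test of any drinking effect that differed by batch called 4.81% of all genes and 1 member, *Eprs* (unadjusted p = 0.0162). *Eprs* encodes the joined glutamyl and prolyl enzyme.

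Exact permutation tests (2-sided) were run on *Lars2* alone, a gene that was singled out with earlier results of these data known. The Acute and Water mice of the first batch gave p = 0.0286 (4 against 4), the smallest that 70 regroupings allow. Those of the second batch gave an exact permutation p of 0.0173 (5 against 6). With mice regrouped within batches, the exact permutation p was 0.000247 over 32340 regroupings. Adjusted over the 9 permutation tests of *Lars2*, these became 0.0826, 0.0779 and 0.00222. This adjustment does not cover the choice of *Lars2* from among all genes, over which its edgeR adjusted p was 0.194.

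A few annotated transcripts, listed here as rRNA-like, were set beside *Lars2*, and in the first batch *CT010467.1* and *Mir6236* correlated with it by both measures used below. *CT010467.1*, annotated as rRNA, had 861 to 1654 CPM in the 4 Acute mice of the first batch, 622 to 825 in the 4 Water mice and 567 to 979 in the 3 Chronic mice. In the second batch it was at 0.404 to 1.39 CPM over all groups. *Mir6236*, a short transcript annotated as a miRNA, had 15.4 to 19.4 CPM in Acute, 10.4 to 11.97 in Water and 9.05 to 16.3 in Chronic mice of the first batch, and was at or near 0 in the second, where its highest value was 0.0499 CPM. *Gm42418*, which overlaps *CT010467.1* on the opposite strand and was used here in the first batch only, had 33.3 to 43.5 CPM in Acute and 25.1 to 32.9 in Water mice. All 3 transcripts, and *Gm26917*, a long noncoding RNA at 12.5 to 13.6 in Acute and 10.7 to 11.4 in Water mice, were higher in every Acute mouse than in every Water mouse of the first batch, as *Lars2* was, beside 4.09% of all genes tested without overlap in either direction. *Rn7sk*, the 7SK RNA, overlapped at 0.224 to 0.785 in Acute and 0.0969 to 1.02 in Water mice. *Gm42418* and *Gm26917* were chosen after their values were seen. The library protocol named in the labels, selection of mRNA with removal of rRNA, was given alike for both batches.

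Over the 11 mice of the first batch, log2 CPM of *Lars2* and *Mir6236* had a Pearson r of 0.929 (permutation p = 0.00011, adjusted 0.00198 over 18 relations) and a Spearman rho of 0.918 (permutation p = 0.0002, adjusted 0.0036). Without the 2 mice farthest from the median of *Mir6236*, r was 0.940 (permutation p = 0.0004). With *CT010467.1*, r was 0.853 and rho 0.864 (permutation p = 0.00096 and 0.00121, adjusted 0.00864 and 0.0109), and r was 0.857 without the 2 farthest mice. Among all 16265 other genes tested, *Mir6236* ranked 2nd and *CT010467.1* ranked 17th by r with *Lars2* in this batch. The highest other synthetase was *Pars2* at rank 163.

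The relations were computed again within groups. With group means removed in the first batch, r with *Mir6236* was 0.807 (permutation p = 0.00321, adjusted 0.0182) and 0.538 (permutation p = 0.137) without the 2 farthest mice. The rho with *Mir6236* was then 0.682 (permutation p = 0.0252, adjusted 0.0907). With *CT010467.1*, r was 0.571 (permutation p = 0.0669, adjusted 0.172). *Gm42418* gave r = 0.800 (permutation p = 0.00411, adjusted 0.0182) and rho = 0.700 (permutation p = 0.0205, adjusted 0.0907) before group means were removed, and r = 0.416 after. *Gm26917* gave r = 0.506 (permutation p = 0.114) and rho = 0.418, with r = 0.831 without the 2 farthest mice and -0.286 with group means removed. *Rn7sk* gave r = 0.142. In the 17 mice of the second batch, r of *CT010467.1* with *Lars2* was 0.0850 and rho 0.130 (permutation p = 0.748 and 0.619). In that batch *CT010467.1* had 0.404 to 0.720 CPM in Acute and 0.460 to 0.970 in Water mice. The Acute difference of *Lars2* there was 0.17 on the log2 scale, with an edgeR adjusted p of 0.915. The part of residual rRNA in the *Lars2* values was not tested in either batch.

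**Figure D3:**
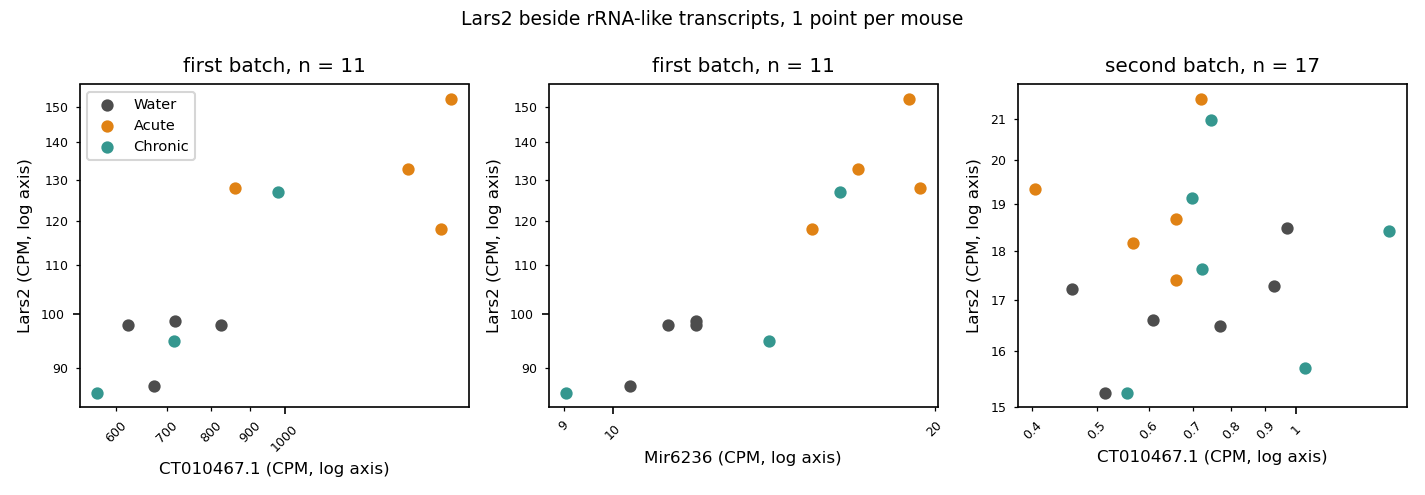
*Lars2* against *CT010467.1* (left, first batch), *Mir6236* (middle, first batch) and *CT010467.1* (right, second batch), in CPM on log axes with 1 point per mouse coloured by group. In the first batch the points rise together (r = 0.853 and 0.929, n = 11), and in the second they do not (r = 0.0850, n = 17).

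The *Lars2* gene lies at chr9:123366927-123462666 on the forward strand (GRCm38). Its longest transcript has 21 exons and 3894 bases, and the last exon carries the end of the coding sequence and the 3′ untranslated region. A run of 52 bases that starts 370 bases past the stop codon is found letter for letter in *Gm15564*, an antisense transcript of chromosome 16 that had a mean count of 5.82 in the first batch and was not tested. Of the rRNA-like RNAs whose sequence was compared, no other gene shared more than 14 bases in a row with *Lars2*, and that value belonged to the mitochondrial rRNA *mt-Rnr1*. *CT010467.1*, annotated as rRNA, was among those compared, and shared at most 11 bases in a row on the same strand and 13 on the opposite. No other sequence of the nuclear ribosomal RNAs, *Rn45s* and *Rn18s-rs5* included, was at hand, so the run was not compared with those. The first 30 bases of the run are shown because it was the longest stretch that *Lars2* shared with a transcript of the list.

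*Lars2*, chr9:123462048-123462077, forward strand: gaattcaccaagcgttggattgttcaccca

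The difference between batches was far larger for *Lars2* than for any other synthetase. Second minus first batch, its log2 fold change was -2.61 ± 0.06, a level 6.10-fold lower (edgeR adjusted p = 2.96e-25). The other 33 members lay between -0.19 and 0.31. Of these, *Aars2* was highest, at 0.31 ± 0.04 (edgeR adjusted p = 1.06e-07), and *Nars2* lowest, at -0.19 ± 0.04 (edgeR adjusted p = 0.000912). Cytosolic members differed between batches in 9 of 15 cases, 8 of them higher in the second batch, and mitochondrial members in 6 of 17, with 3 in each direction and *Lars2* among the lower. *Gars* and *Kars* were both higher in the second batch. Over all genes, 46.2% differed between the batches, and *Lars2* ranked 42nd from the lowest of 16266. Anything that differed between the batches cannot be told apart from the cohort of mice.

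**Figure D4:**
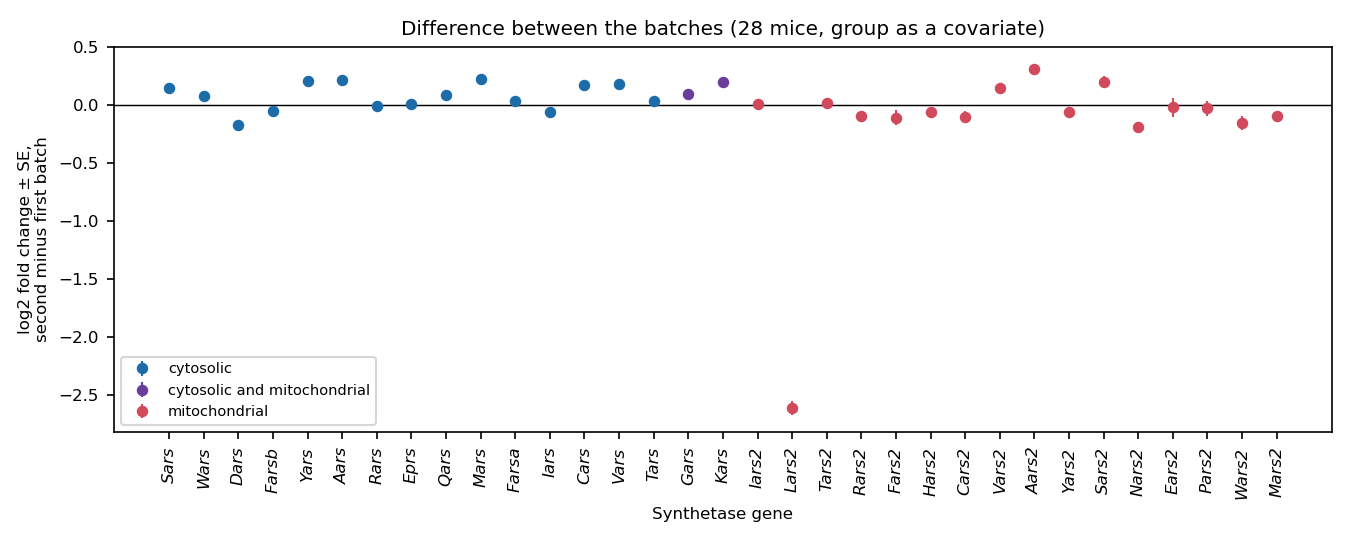
log2 fold change of 33 of the 34 synthetase genes, second minus first batch, with its SE from the fit over 28 mice with group as a covariate and compartments in colour. *Lars2* sits at -2.61 and the other members plotted between -0.19 and 0.31.

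The other members had smaller differences after the single session. *Gars* had 109 to 122 CPM in the 4 Water mice and 117 to 134 in the 4 Acute mice of the first batch, and 126 to 133 in the 6 Water and 126 to 135 in the 5 Acute mice of the second. The groups overlapped in both. Its log2 fold change was 0.06 ± 0.03 (unadjusted p = 0.0444, adjusted p = 0.513 in edgeR). *Kars* had a fold change of the same size, 0.06 ± 0.04, with an adjusted p of 0.633 in edgeR. *Vars2*, the mitochondrial valyl enzyme, was lower by 0.09 ± 0.04 (unadjusted p = 0.0165, adjusted p = 0.467 in edgeR). It had 22.5 to 25.5 CPM in Acute and 25.6 to 26.7 in Water mice of the first batch, where the groups lay apart. In the second batch it overlapped at 25.9 to 29.1 in Acute and 26.8 to 31.4 in Water mice.

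*Yars*, the tyrosyl enzyme, was the only other member whose Acute and Water mice lay apart in the first batch, at 74.4 to 78.5 against 71.5 to 74.2 CPM. Of the 34 members, 2 (*Lars2* and *Yars*) thus lay wholly higher and 1 (*Vars2*) wholly lower, beside 4.09% of all genes in either direction. Its log2 fold change over both batches was 0.05 ± 0.03. The cytosolic members with the next lowest p were *Sars* at 0.04 ± 0.03, *Wars* at 0.05 ± 0.03 and *Tars* at -0.06 ± 0.04. *Tars* was at 0.01 in the first batch, while its second-batch value was -0.11. Among mitochondrial members, *Aars2*, for alanine, stood at -0.06 ± 0.04 and *Mars2*, for methionine, at -0.06 ± 0.05. The edgeR adjusted p of these 6 genes lay between 0.543 and 0.744.

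The second comparison asked the same of repeated drinking. No member passed an adjusted p of 0.05 in Chronic against Water, where edgeR called 3 of all genes (0.0184%), and DESeq2 called 0 members. At an unadjusted p under 0.05, 2 of 34 members stood out, both cytosolic and both higher, beside 10.5% of all genes. *Yars* was higher by 0.07 ± 0.03 (unadjusted p = 0.0167, adjusted p = 0.350 in edgeR). In the first batch its Chronic mice had 74.0 to 77.3 CPM against 71.5 to 74.2 in Water mice, and in the second 83.0 to 93.5 against 76.8 to 90.1, so that the groups overlapped in both. *Sars* was higher by 0.06 ± 0.03 (unadjusted p = 0.0323, adjusted p = 0.427 in edgeR), at 128 to 139 against 122 to 131 CPM in the first batch and 142 to 153 against 135 to 150 in the second.

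A difference between the compartments under repeated drinking was described by counts and medians and was not tested. Of the 15 cytosolic members, 8 were above 0, with a median log2 fold change of 0.02, and of the 17 mitochondrial members 5 were above 0, with a median of -0.02. The median over all genes was 0.00, with 51.0% above 0. *Eprs* was at -0.06 ± 0.03 and *Vars* at 0.07 ± 0.04. Among mitochondrial members, *Cars2*, for cysteine, was at 0.11 ± 0.06, *Mars2* at -0.08 ± 0.05, *Aars2* at -0.06 ± 0.04 and *Lars2* at 0.10 ± 0.07. The edgeR adjusted p of these 6 genes lay between 0.495 and 0.671. *Gars* stood at 0.02 ± 0.03 and *Kars* at -0.0043 ± 0.0386.

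The sign of *Eprs* was not the same in the 2 batches. In the first, its 3 Chronic mice had 81.3 to 83.2 CPM and its 4 Water mice 78.7 to 80.5, with no overlap. In the second, 70.5 to 83.0 CPM in Chronic mice stood against 82.7 to 88.7 in Water mice. *Vars* was the other member without overlap in the first batch, at 37.0 to 42.0 CPM in Chronic against 34.1 to 36.9 in Water mice, and it overlapped at 38.7 to 49.6 against 39.6 to 46.9 in the second. Such a lack of overlap was found in 2 of 34 members and 4.56% of all genes in the first batch, and in 0 of 34 members and 0.775% of genes in the second.

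**Figure D5:**
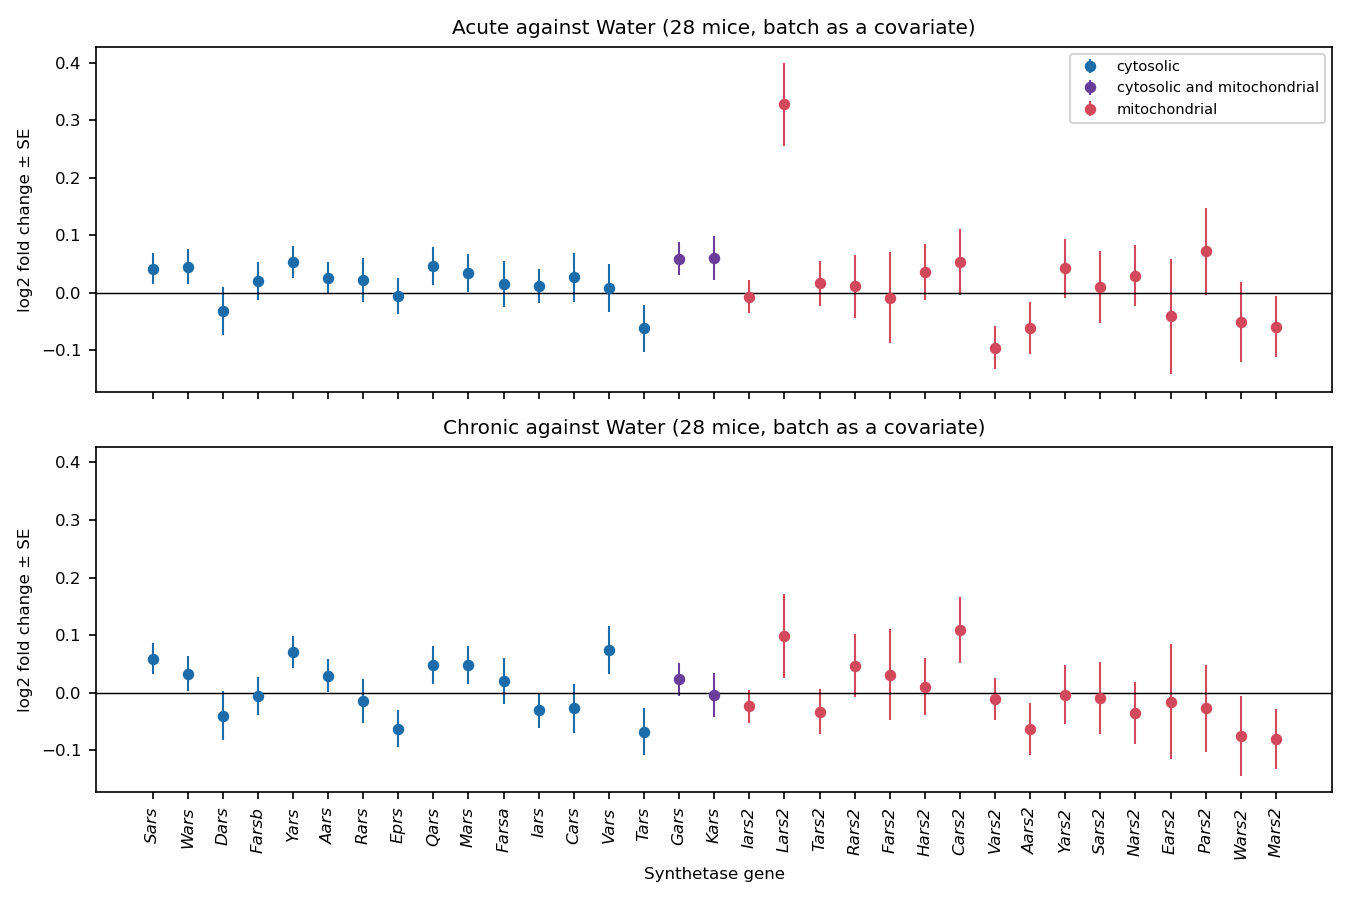
log2 fold change of 33 of the 34 synthetase genes with its SE, Acute against Water (top) and Chronic against Water (bottom), from the fit over 28 mice with batch as a covariate, with compartments in colour. All members plotted but *Lars2* in Acute and *Cars2* (0.11) in Chronic mice lie within 0.1 of 0, and *Lars2* stands at 0.33 in Acute and 0.10 in Chronic mice.

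The drinking groups share the Water mice as their control. Between the drinking groups themselves, edgeR called none of the members and none of all genes (0.0%). At an unadjusted p under 0.05 there were 2 members, beside 4.44% of all genes. *Lars2* was lower in Chronic than in Acute mice by a log2 fold change of -0.23 ± 0.07 (unadjusted p = 0.00463, adjusted p = 0.998 in edgeR), with an exact permutation p within batches of 0.0367 and 0.0826 after adjustment over the 9 tests (9 against 9). The within-batch values were -0.37 ± 0.12 in the first and -0.09 ± 0.08 in the second. *Vars2* was higher by 0.08 (unadjusted p = 0.0368 in edgeR). No member had Chronic and Acute mice apart in either batch, where 6.21% of genes did so in the first and 0.4% in the second.

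Each compartment was also summed up in every mouse, as the mean log2 CPM of its members with the batch mean removed. The cytosolic value lay between -0.0712 and 0.0351 in Water mice, between -0.0383 and 0.0545 in Acute mice and between -0.0487 and 0.0594 in Chronic mice. The mitochondrial value, with *Lars2* left out, lay between -0.0574 and 0.0450, between -0.0346 and 0.0515 and between -0.0544 and 0.0441. The 3 groups overlapped in both compartments. Across batches the sign of the difference from Water was shared by 15 of 34 members in Acute mice and by 19 of 34 in Chronic mice, against 57.3% and 51.7% of all genes.

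The 3 cytosolic genes described in the second batch alone had overlapping groups. *Hars*, for histidine, had 70.01 to 77.3 CPM in Water, 71.8 to 84.5 in Acute and 74.1 to 86.7 in Chronic mice. *Lars*, the cytosolic leucyl enzyme, had 31.1 to 34.6, 30.2 to 35.1 and 28.02 to 33.8 CPM. *Nars*, for asparagine and the highest cytosolic synthetase measured at 62.1 ± 2.54 CPM per kilobase in the 6 Water mice, had 158 to 174, 160 to 176 and 165 to 180 CPM. In a fit of the second table alone, their log2 differences from Water lay between -0.08 and 0.08, with edgeR adjusted p of 0.474 or more. *Lars* was at -0.02 ± 0.05 in Acute mice of the batch in which *Lars2* was at 0.17 ± 0.08.

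Genes that ATF4 is known to induce were taken as a group because amino acid stress raises them together. Of the 13 synthetases on that list, 11 were members. In Acute mice 9 of the 11 were above 0, with a median log2 fold change of 0.03, and in Chronic mice 7 of 11, with a median of 0.03, beside 0.00 over all genes in both. Over all genes, 50.6% and 51.0% were above 0. None of the 11 passed an adjusted p of 0.05 in edgeR, and 1 in Acute and 2 in Chronic mice were under an unadjusted p of 0.05, beside 9.52% and 10.5% of all genes. The 7 measured enzymes of the multisynthetase complex had 5 above 0 in Acute and 2 in Chronic mice, beside 50.6% and 51.0% of all genes. Among them, 0 were under an unadjusted p of 0.05, beside 9.52% and 10.5% of all genes.

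The element that ATF4 binds with C/EBP factors was searched as TGATGNAA on either strand of RefSeq promoters (GRCm38.p6), from 250 bases before to 50 after the start. Entries were found for 27 of the 34 members. The motif was present in 5 of them, 4 of 11 cytosolic members and *Gars*, and in 0 of 14 mitochondrial members. It was present in 4.51% of the 27025 genes with a promoter in the table. All 5 genes were on the list of ATF4 targets. The windows, for each gene the one nearest its start, are shown because every match lay in a cytosolic gene or in *Gars*. Capitals mark the match, which reads TTNCATCA where it lies on the other strand.

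*Yars*, chr4:129189895-129189924, forward strand: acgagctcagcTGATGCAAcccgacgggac
*Gars*, chr6:55037960-55037989, forward strand: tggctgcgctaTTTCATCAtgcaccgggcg
*Aars*, chr8:111033840-111033869, forward strand: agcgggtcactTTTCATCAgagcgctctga
*Iars*, chr13:49682126-49682155, forward strand: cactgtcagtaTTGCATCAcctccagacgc
*Tars*, chr15:11399655-11399684, reverse strand: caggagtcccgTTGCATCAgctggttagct

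A match is a description of the letters and not of binding. *Yars* and *Gars* are given above, *Aars* was at 0.03 ± 0.03 in Acute and 0.03 ± 0.03 in Chronic mice, *Iars* at 0.01 ± 0.03 and -0.03 ± 0.03, and *Tars* was below 0 in both.

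Of the integrated stress response genes, 19 of 20 were tested and none passed an adjusted p of 0.05 in edgeR in any comparison. At an unadjusted p under 0.05 there were 2 in Acute and 1 in Chronic mice against Water, beside 9.52% and 10.5% of all genes. In Acute mice 13 were above 0, with a median of 0.03, and in Chronic mice 13, with a median of 0.05, beside 50.6% and 51.0% of all genes above 0. *Atf4* had 73.2 to 90.3 CPM in Water, 77.8 to 89.0 in Acute and 79.8 to 96.0 in Chronic mice. Among genes above 0, the lowest p in Acute mice belonged to *Psat1*, of serine synthesis, at 0.09 ± 0.04, and *Shmt2*, of mitochondrial one-carbon metabolism, at 0.08 ± 0.04. Below 0 they belonged to *Eif2ak4*, the kinase that senses uncharged transfer RNA, at -0.08 ± 0.04, and *Atf5* at -0.06 ± 0.06. In Chronic mice, *Cebpb*, a partner of ATF4, was at 0.33 ± 0.11 (unadjusted p = 0.00567, adjusted p = 0.272 in edgeR) and *Sesn2* at 0.13 ± 0.06, while *Eif2ak4* was at -0.07 ± 0.04 and *Eif2ak3* at -0.03 ± 0.04.

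Other genes of the aminoacylation pathway, which encode scaffold proteins, editing enzymes, elongation factors and tRNA-processing enzymes, were described in the same way. Of 19 tested, none passed an adjusted p of 0.05 in edgeR, and 2 in Acute and 3 in Chronic mice were under an unadjusted p of 0.05, beside 9.52% and 10.5% of all genes. In Acute mice 15 were above 0, with a median of 0.05, and in Chronic mice 11, with a median of 0.01, beside 50.6% and 51.0% of all genes. *Aimp1*, a scaffold of the multisynthetase complex, was at 0.11 ± 0.05 in Acute mice, and *Dtd2*, which clears D-amino acids from tRNA, at 0.13 ± 0.06. Below 0 were *Mtfmt*, which formylates the mitochondrial initiator tRNA, at -0.05 ± 0.05, and *Prorsd1* at -0.09 ± 0.14. In Chronic mice *Pstk*, of selenocysteine synthesis, was at 0.15 ± 0.06 and *Dtd2* at 0.12 ± 0.06, while *Tarsl2*, a threonyl synthetase-like gene, was at -0.06 ± 0.03 and *Trnt1*, which adds the CCA end to tRNA, at -0.06 ± 0.03. The edgeR adjusted p of these genes lay between 0.355 and 0.874. Of the 15 transcripts encoded by the mitochondrial genome, mRNAs and the rRNAs *mt-Rnr1* and *mt-Rnr2*, none passed an adjusted p of 0.05 in edgeR in either comparison with Water. At an unadjusted p under 0.05 there were also none, beside 9.52% and 10.5% of all genes. Above 0 were 12 in Acute and 7 in Chronic mice, beside 50.6% and 51.0% of all genes.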

How the data were processed

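Amygdala RNA from 28 mice was sequenced in 2 batches. Per the labels and the submitters' processing notes, the authors checked reads with FastQC 0.11.8, quantified them with Salmon 0.14.1 on GRCm38 (mm10) and deposited 1 table of estimated counts per gene for each batch, which hold whole numbers. Columns of no sample numbered 0. Genes in both tables with a mean count of 10 or more were fitted in edgeR 4.0.16 (R 4.3.3) with TMM factors, a quasi-likelihood test and batch and group as terms, and p-values were adjusted over all 16266 genes by the Benjamini-Hochberg method (threshold 0.05). log2 CPM used a prior count of 2. Permutation tests of correlations used 100000 resamples within batches. Alternatives used DESeq2 1.42.0, sva 3.50.0 (ComBat-seq) and limma 3.58.1, and plots and permutations Python 3.11.15. The fit was tested on simulated data. No pair of libraries of a group agreed within sampling noise.

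Members and gene lists were chosen with earlier results of these data known. Every member could be named. Given in full were *Lars2*, the 4 cytosolic and 4 mitochondrial members with the lowest p in each comparison with Water, the 3 highest and 2 lowest levels per length of each compartment, each rRNA-like transcript that passed the count minimum and, of the other lists, the 2 genes of lowest p in each direction. *Atf4*, *S100b*, *Gm15564*, *Gm26917* and *Gm42418* were added after their values were seen. The values of 1 member are counted in the totals and are not reported here one by one. Gene models overlap on the opposite strand for some members (*Mars* with *Ddit3*, *Cars2* with *Naxd*, *Hars* with *Hars2*), and the strand setting is not given in the sources used here, so those reads may be split. The batches were separate cohorts of mice. Replicates were separate mice. Salmon divides reads shared between transcripts by estimate.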

Additional observations from a re-analysis of the deposited data

Results flagged for a closer look

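Within the groups of each member (99 in all, 33 members, on log2 CPM with batch means removed), a mouse stood apart from the rest of its group by Dixon's test in 4 cases, 4.04% of groups, and chance flags about 1 in 20. *Farsa* and *Hars2* were lowest in Water replicate 4 of the second batch, at 21.7 and 14.3 CPM, with gaps of 0.62 and 0.551 of the group's range. *Gars* was lowest in Water replicate 40 of the first batch at 109 CPM (0.553 of the range). *Vars* was highest in Water replicate 2 of the second batch at 46.9 CPM (0.502).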

How the results depend on the processing

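The count of members called stayed at 0 in every comparison and alternative, except that *Lars2* (1 member) was called in Acute against Water by DESeq2 with batch as a covariate (log2 fold change 0.317, adjusted p = 0.0495), by ComBat-seq with DESeq2 (0.283, adjusted p = 0.0482) and, in the first batch alone, by DESeq2 (0.476, adjusted p = 0.04). Leaving out 1 mouse kept the count at 0 and moved *Lars2* in Acute mice between 0.279 and 0.352 over both batches, with edgeR adjusted p of 0.0874 or more. In Chronic mice it moved between 0.0464 and 0.148 against Water over both batches and, against Acute, between -0.141 and -0.0413 in the second batch. In Chronic against Water of the first batch, *Lars2* ran from -0.073 to 0.215, and it turned sign without Chronic replicate 39. *Kars* in Chronic mice ran from -0.0273 to 0.0168 and was 0.00137 with no filter on counts. Other named values, none of which passed the test, also moved by over 1.5 times when 1 mouse was left out, from -0.166 to -0.015 for *Prorsd1*, -0.0745 to -0.0233 for *Mtfmt*, -0.0889 to -0.026 for *Atf5*, -0.078 to -0.0353 for *Mars2*, -0.0811 to -0.0384 for *Tars*, 0.0271 to 0.053 for *Sars* and 0.0583 to 0.101 for *Psat1* in Acute mice, and from 0.00975 to 0.0341 for *Gars*, -0.11 to -0.0511 for *Mars2*, -0.072 to -0.0415 for *Eprs* and -0.0536 to -0.0155 for *Eif2ak3* in Chronic mice. In the first batch alone other signs turned: *Tars* (0.00697) and *Mtfmt* (0.000976) in Acute mice, and *Eprs* (0.049), *Kars* (0.0134) and *Dtd2* (-0.00128) in Chronic mice. The cause was not tested. With group means removed, chosen after seeing the data, r of *Lars2* in the first batch was 0.571 with *CT010467.1*, 0.416 with *Gm42418*, -0.286 with *Gm26917* and -0.117 with *Rn7sk*, and 0.216 with *Rn7sk* in the second batch. Without the 2 farthest mice it was 0.831 with *Gm26917* and, in the second batch, 0.154 with *Rn7sk*. With all exons joined, also chosen after seeing the data, the median mitochondrial level was 5.25 in place of 5.96 CPM per kilobase. Same-numbered mice of the second batch deviated together (r over 0.1) in 4 of 16 pairs, beside 26 of 80 pairs with different numbers. Correlations of expression cannot show whether the numbers in the labels mark pairs of mice. With the replicate block *Lars2* was 0.338 in Acute mice (adjusted p = 0.327 in edgeR) and the calls were as without it. DESeq2 with batch called 8 genes in Acute and 36 in Chronic mice against Water, and ComBat-seq with DESeq2 called 30 and 98, beside 0 and 3 in edgeR.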
